A study of Danio rerio with 6 samples.

Results

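The genes described here are a panel of chemokines, chemokine receptors and inflammatory cytokines, chosen by name, with earlier results of these data known. The 10 zebrafish symbols are those of the CXCL12 receptors and ligands (cxcr4a, cxcr4b, cxcl12a, cxcl12b and ackr3b), the receptor gene cxcr3.2, and cxcl8a, il1b, il34 and il6r. They were matched to 11 of the 32520 gene IDs in the count files. Of the symbols, 6 were listed as such in the gene name table, and the other 4 were found under capital symbols. CXCL12 stands for cxcl12a, while CXCR4 and ACKR3 each stand for 2 IDs. The table does not tell cxcr4a from cxcr4b or ackr3a from ackr3b, so these genes are given by symbol and ID.

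RNA-seq counts came from 3 control libraries and 3 blf-/-;drl 4KO libraries of zebrafish (Danio rerio) blood progenitors at 20 h post fertilization, each made from 30000 sorted cells. Embryos were dissociated with Liberase, and cells of both groups were sorted for RFP, a red fluorescent protein made from the trapped blf locus. The blf-/-;drl 4KO group, whose samples are called the mutant libraries, is mutant for blf and for the draculin (drl) genes; blf and drl are zinc finger genes that are active in mesoderm with blood potential. The labels disagree on the controls, which are blf-/- in the sample genotype field and blf+/- in the series design.

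Chemokines are small secreted proteins that steer migrating cells through G protein-coupled receptors. Cxcl12 is read by Cxcr4, and Ackr3 takes up Cxcl12 and so shapes its gradient. In zebrafish embryos this system guides germ cells and the lateral line primordium, and Cxcr4 is also made by blood cells. Il1b, Il34 and the Il6 receptor act in inflammation and in the making and movement of macrophages.

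Total counts ranged from 12751618 to 18101975 per library. Summed reads of the 4 drl genes were 56864 in the control group and 29 in the mutant group, so the drl genes followed the labels. blf was at 2526 to 2835 against 45.3 to 118 CPM (a gene's reads as a rate of its library's TMM-scaled total). The blf-/- label of the controls is shared with the mutant group, so the blf difference does not follow that label. The labelled cell type was checked with marker lists. Red cell markers were the largest of the 8 lists in every library, but their summed CPM was 93312 to 121136 in the controls and 11634 to 15663 in the mutant libraries, with 8 of 9 IDs lower and 0 higher. Macrophage markers were at 878 to 1039.7 against 4446 to 5977 CPM (10 of 12 tested IDs higher, 0 lower). Several of the IDs called higher share the symbol MFAP4, while csf1ra and MFAP4 ENSDARG00000088745 did not pass. Of this list, cd74a was not tested, with 0 reads in the controls and 1 in the mutant libraries. Also untested, MPEG1 ENSDARG00000043093 was lower without overlap, at 0.794 ± 0.480 CPM in the controls and 0.246 ± 0.0808 CPM in the mutant libraries. The other untested MFAP4 and MPEG1 IDs had lower means there too. Neutrophil markers were at 441 to 779 against 1783 to 2673 CPM (5 of 6 higher, 0 lower). Endothelial markers were at 88.7 to 157 against 417 to 474 CPM (4 of 7 higher, 0 lower), and epidermal markers at 154 to 195 against 1579 to 2296 CPM (7 of 8 higher, 0 lower). In such bulk libraries, fewer cells of a type and less RNA per cell cannot be told apart.

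**Figure D1:**
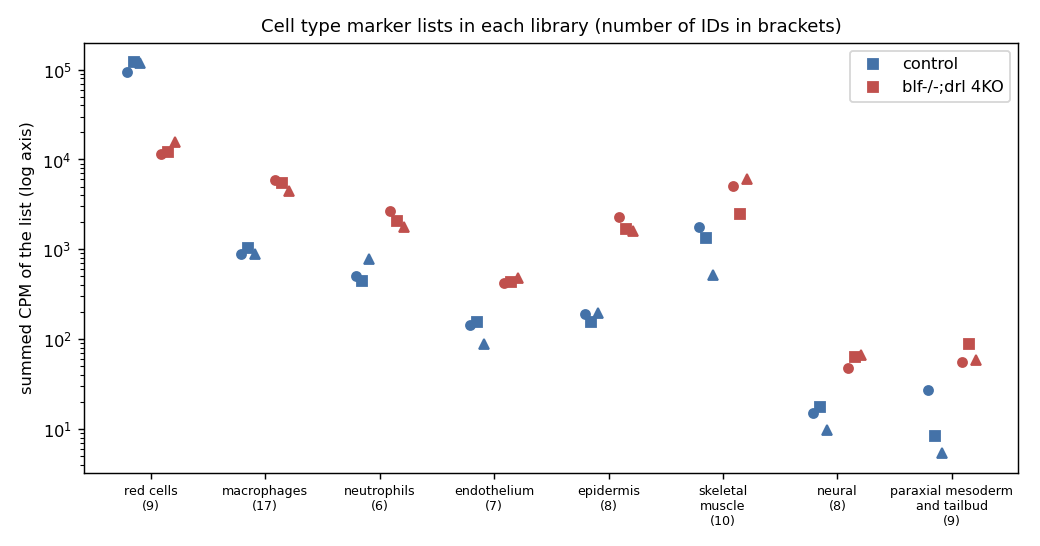
Summed CPM (log axis) of 8 cell type marker lists in each library; circles, squares and triangles are replicates 1, 2 and 3 and no error is drawn. The red cell list is lower, and the macrophage list 5.66-fold higher, in the mutant libraries than in the controls.

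Genes of the panel were higher in the mutant cells. Of the 11 IDs, 7 rose, 0 fell, 2 were tested and not past the threshold, and 2 had too few reads to be tested (edgeR quasi-likelihood test, Benjamini-Hochberg adjusted p under 0.05 over 14517 genes). Over all tested genes, 13.0% were called higher and 9.92% lower. Of all calls 56.7% were higher, against 71.5% when libraries were scaled by their totals alone. Without the expression filter, 1 member, the sparse CXCR4 ID described further on, was called lower. The groups did not overlap for 8 of the 9 tested IDs, all higher, as was so for 22.7% of all tested genes. The median log2 fold change of the 9 was 2.17, and that of all tested genes was 0.11. The panel was chosen with earlier results of these data known, so its counts and median are descriptions. Scaling by library totals moved the median of all genes to 0.42. Together the 11 IDs took 0.0209%, 0.0230% and 0.0210% of all counts in control replicates 1, 2 and 3, and 0.0958%, 0.0941% and 0.0978% in the mutant replicates. These shares did not overlap, but they use library totals alone, the scaling that moved the median of all genes.

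**Figure D2:**
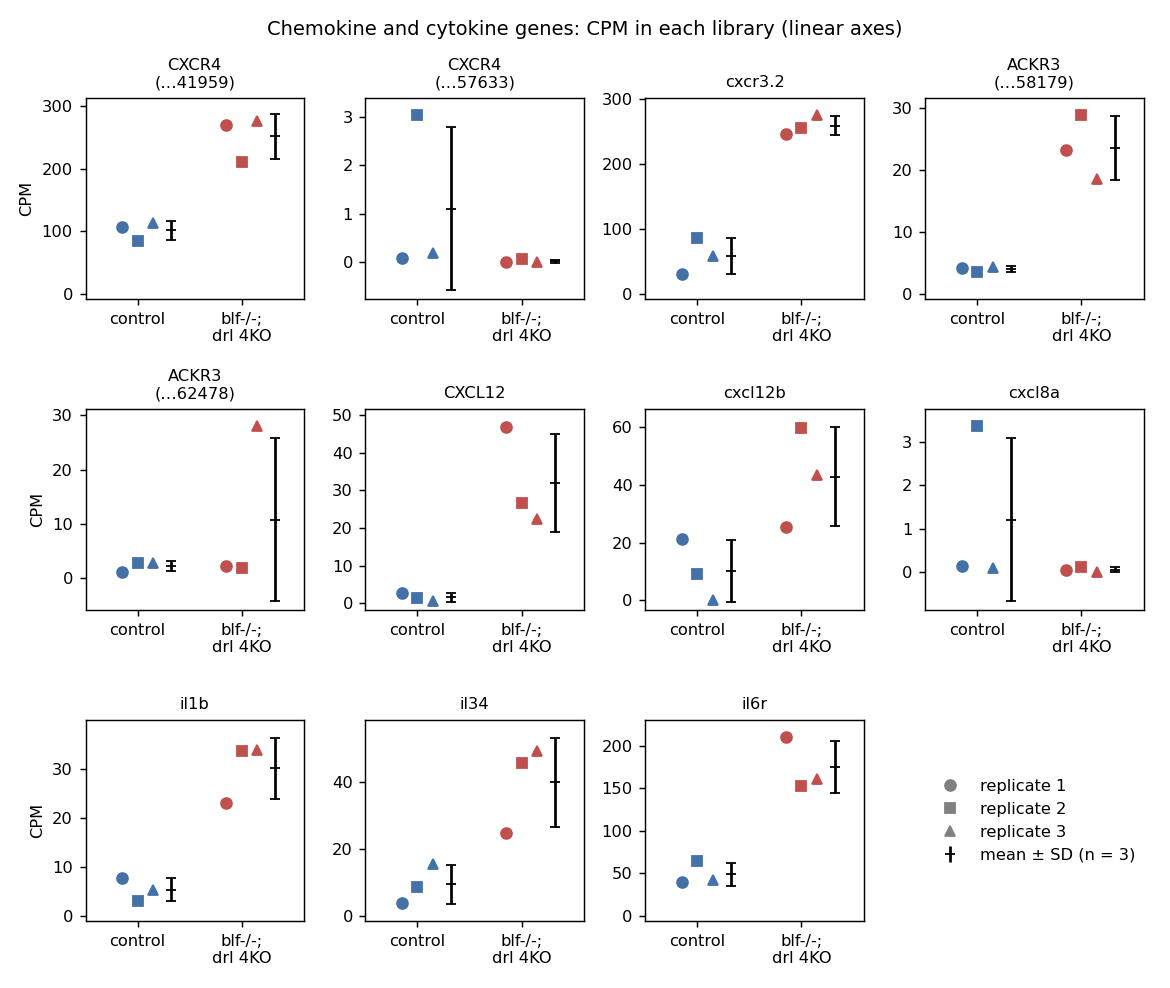
CPM of the 11 IDs in each library (linear axes that differ between panels); symbols mark replicates 1 to 3, and bars are the mean ± SD with n = 3. For cxcr3.2 the mutant libraries lie at 247 to 275 CPM and the controls at 29.8 to 85.0, whereas both sparse genes and 1 ACKR3 ID owe their mean to a single library.

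The receptors are given first. CXCR4 (ENSDARG00000041959), the Cxcl12 receptor, was at 106, 84.5 and 113 CPM in the controls, in the order of replicates 1, 2 and 3 that is kept throughout, and at 269.7, 209.9 and 276 CPM in the mutant libraries. Every mutant library was above every control, and the spread in each group was small. The mean rose 2.49-fold, from 101 ± 14.9 to 252 ± 36.4 CPM (SD, n = 3, adjusted p = 0.00117, edgeR, log2 fold change 1.31, SE 0.21).

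The other ID listed as CXCR4 (ENSDARG00000057633) had 1, 37 and 2 reads in the controls and 0, 1 and 0 in the mutant libraries, and was not tested. Control replicate 2 held 92.5% of its control reads. The ratio of scaled sums was 57.6 in favour of the controls (95% exact binomial interval 9.75 to 2330, covering counting error only), but without control replicate 2 it was 3 reads against 1. The first ID held 99.9%, 96.5% and 99.8% of the reads of both CXCR4 IDs in the controls and 100%, 99.97% and 100% in the mutant libraries. This share differed by 1.23 percentage points, or 0.106 without control replicate 2 (exact permutation p = 0.1, two-sided, the smallest that 3 against 3 allows).

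cxcr3.2 (ENSDARG00000041041) encodes a Cxcr3 receptor that acts in macrophage recruitment in zebrafish. It was at 29.8, 85.0 and 58.4 CPM in the controls and at 247, 256 and 275 CPM in the mutant libraries. The controls differed among themselves by more than the mutant libraries did, and the groups lay far apart. The rise was 4.49-fold, from 57.7 ± 27.6 to 259 ± 14.8 CPM (SD, n = 3, adjusted p = 0.000848, edgeR, log2 fold change 2.17, SE 0.33). Its paralog cxcr3.3 was at 3.37 ± 2.98 and 16.0 ± 2.66 CPM and did not pass (log2 fold change 2.24, 95% interval 0.44 to 4.04, adjusted p = 0.0723, edgeR).

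The 2 IDs of ACKR3, the Cxcl12 scavenger, differed in how their reads were spread over libraries. ENSDARG00000058179 was at 4.14, 3.46 and 4.27 CPM in the controls and at 23.2, 28.9 and 18.6 CPM in the mutant libraries. All mutant values were above the controls, which were close to one another. It rose 5.95-fold (adjusted p = 0.0108, edgeR, log2 fold change 2.57, SE 0.61). ENSDARG00000062478 was at 1.18, 2.72 and 2.82 CPM in the controls and at 2.31, 1.81 and 28.0 CPM in the mutant libraries. The groups overlapped, since mutant replicate 3 alone held 84.5% of the reads of its group. This ID did not pass (log2 fold change 2.25, 95% interval -0.31 to 4.81, adjusted p = 0.195, edgeR), and without that library its log2 fold change was -0.09.

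Among the ligands, CXCL12 (ENSDARG00000037116) had the largest rise of the panel. It was at 2.81, 1.48 and 0.546 CPM in the controls and at 46.8, 26.7 and 22.3 CPM in the mutant libraries. It was sparse in all controls, with 62 reads in total, and well covered in all mutant libraries, with 1741. Control replicate 3 was under the expression filter of 0.708 CPM, so CXCL12 could enter the test only with mutant libraries. The mean was 19.8-fold higher (adjusted p = 0.00210, edgeR, log2 fold change 4.29, SE 0.75). In zebrafish embryos Cxcl12a is made by mesoderm, among other tissues, so mesoderm markers are given beside it. Muscle markers summed to 521 to 1780.4 CPM in the controls and to 2471 to 6082 CPM in the mutant libraries (4 of 9 tested IDs higher, 0 lower). Of the paraxial mesoderm and tailbud list, 1 of 5 tested IDs, cdx4, was called higher and 0 lower. Its sum was 5.37 to 27.2 against 55.1 to 87.7 CPM, with both WNT8A IDs at 0 reads throughout. The members tbx6 (1.40 ± 1.18 and 0.222 ± 0.292 CPM) and mespba (0.2996 ± 0.0287 and 0.129 ± 0.0553 CPM) were not tested and had lower means in the mutant libraries, and tbxta (7.52 ± 11.8 and 26.8 ± 25.6 CPM) did not pass. The remaining tested IDs had higher means there and did not pass either. These were dlc (2.45 ± 1.18 and 12.1 ± 2.45 CPM), ripply1 (1.01 ± 0.859 and 5.53 ± 4.44 CPM) and msgn1 (0.746 ± 1.21 and 1.43 ± 1.25 CPM). The part of mesoderm cells in the CXCL12 value was not tested.

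The second Cxcl12 gene, cxcl12b (ENSDARG00000055100), was at 21.4, 9.15 and 0.182 CPM in the controls and at 25.4, 59.9 and 43.5 CPM in the mutant libraries. The groups did not overlap, but control replicate 1 was close to mutant replicate 1, and the controls ranged from 2 to 289 reads. It did not pass (log2 fold change 2.06, SE 0.98, 95% interval -0.08 to 4.21, adjusted p = 0.157, edgeR), nor in any alternative run (adjusted p = 0.0597 to 0.326). CXCL12 held 11.6%, 14.0% and 75.0% of the summed reads of both ligand genes in the controls and 64.8%, 30.9% and 33.9% in the mutant libraries. Control replicate 3 had only 8 such reads (exact Clopper-Pearson interval 34.9% to 96.8%). The shares overlapped, and the difference of 9.64 percentage points did not exceed the spread (exact permutation p = 0.6, two-sided, smallest possible 0.1). Leaving out 1 library moved it to between -1.31 and 30.4 points: it was -1.31 without control replicate 1, -0.142 without control replicate 2 and -1.17 without mutant replicate 1, and 15.8, 14.3 and 30.4 without mutant replicates 2 and 3 and control replicate 3.

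cxcl8a (ENSDARG00000104795), the attractant of neutrophils, had 2, 41 and 1 reads in the controls and 1, 2 and 0 in the mutant libraries, and was not tested. As with the sparse CXCR4 ID, control replicate 2 held nearly all of its control reads, 93.2%. The ratio of scaled sums was 21.1 in favour of the controls (95% exact binomial interval 6.77 to 106, counting error only). Without control replicate 2 both groups had 3 reads, so the difference rests on that 1 library. Fitted with no expression filter, cxcl8a did not pass (log2 fold change -4.11, adjusted p = 0.0877, edgeR). Its receptor gene cxcr1 (ENSDARG00000052088) had 12 and 14 reads over the groups, and the ID listed as CXCR1 (ENSDARG00000054975) had 1 and 0, both too few for a test.

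Of the cytokines, il1b (ENSDARG00000098700), the fever cytokine released through inflammasomes, was at 7.62, 2.97 and 5.28 CPM in the controls and at 22.9, 33.5 and 33.8 CPM in the mutant libraries. Each mutant library was above each control. The rise was 5.69-fold, from 5.29 ± 2.33 to 30.1 ± 6.21 CPM (SD, n = 3, adjusted p = 0.00962, edgeR, log2 fold change 2.51, SE 0.58). Some genes of the wider lists with a role in inflammasomes or pore formation are given beside il1b. They were named for a small p or after their values were seen, so they are single descriptions. pycard, the inflammasome adaptor, rose 5.19-fold and caspa, a zebrafish caspase of the inflammasome, 13.7-fold (adjusted p = 3.89e-05 and 0.000248, edgeR). The pore-forming gasdermin genes gsdmea, at 1.33 ± 1.25 and 3.60 ± 1.25 CPM, and GSDME, at 6.52 ± 2.87 and 2.70 ± 1.82 CPM, did not pass. The sensor gene nlrp3 and the caspase gene caspb were not tested, and caspb had 2, 4 and 1 reads in the controls and 544, 97 and 4 in the mutant libraries.

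il34 (ENSDARG00000091003), a ligand of the macrophage growth factor receptor Csf1r, was at 3.85, 8.74 and 15.6 CPM in the controls and at 24.7, 45.8 and 49.2 CPM in the mutant libraries. The groups did not overlap, but both were wide. It rose 4.25-fold (adjusted p = 0.0232, edgeR, log2 fold change 2.09, SE 0.58). The call was lost when 1 library was left out in 4 of 6 cases, with an adjusted p of 0.0690 and 0.0928 for control replicates 1 and 2 and of 0.0690 and 0.0774 for mutant replicates 2 and 3. csf1a, for another Csf1r ligand, whose control mean was under the expression filter of 0.708 CPM, rose from 0.653 ± 0.434 to 12.6 ± 3.12 CPM (adjusted p = 0.0103, edgeR, log2 fold change 4.24, SE 0.99). The receptor genes csf1ra, at 2.70 ± 2.22 and 8.71 ± 6.73 CPM, and csf1rb, at 1.93 ± 2.51 and 11.3 ± 8.61 CPM, did not pass.

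il6r (ENSDARG00000104474), the binding subunit of the Il6 receptor, was at 40.0, 64.3 and 42.7 CPM in the controls and at 211, 153 and 161 CPM in the mutant libraries. The groups were far apart. The rise was 3.57-fold, from 49.0 ± 13.3 to 175 ± 31.0 CPM (SD, n = 3, adjusted p = 0.000652, edgeR, log2 fold change 1.84, SE 0.26). The signaling subunit gene il6st was at 12.6 ± 0.304 and 10.8 ± 5.74 CPM and did not pass (log2 fold change -0.21, 95% interval -1.66 to 1.24, adjusted p = 0.843, edgeR). The ligand gene il6 had 4 and 16 reads over the groups and was not tested. Both genes listed as SOCS3, a feedback inhibitor induced by this pathway, had higher means in the mutant libraries, by 4.47-fold (ENSDARG00000025428) and 3.75-fold (ENSDARG00000026611). No test result is given here for these genes, which were named after their values were seen. STAT3, the transcription factor of the pathway, was at 11.2 ± 6.26 and 14.99 ± 4.05 CPM and did not pass. Activity of the pathway was not tested.

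**Figure D3:**
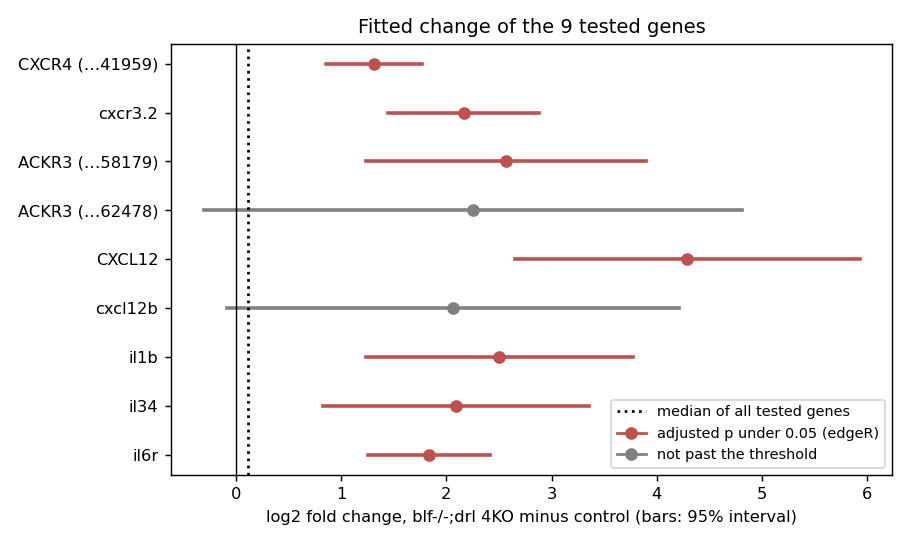
Fitted log2 fold change (mutant minus control, edgeR) of the 9 tested IDs, with 95% intervals; red marks adjusted p under 0.05 and the dotted line is the median of all tested genes (0.11). All 9 estimates are above 0, and the intervals of cxcl12b and of 1 ACKR3 ID reach below it.

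All 7 marker lists other than the red cell list had higher sums in the mutant libraries: epidermis 10.3-fold, macrophages 5.66-fold, paraxial mesoderm and tailbud 4.95-fold, neural 4.23-fold, neutrophils 3.80-fold, muscle 3.74-fold and endothelium 3.41-fold. The CPM of the panel were set against the summed CPM of 1 of these, the macrophage list, a description chosen after the values were seen and not tested; the other lists were not used in this way. Much of the macrophage list is MFAP4. Of its mean sum of 5300 CPM in the mutant libraries, MFAP4 ENSDARG00000090783 held 2027.5 CPM and ENSDARG00000089667 held 1009 CPM. In the controls they held 355 and 59.3 of 936 CPM. That list also includes LCP1, CORO1A and SPI1, which other leukocytes express. Against it, the groups overlapped for cxcr3.2 (3.35 to 8.18 CPM per 100 CPM of the list in the controls, 4.12 to 6.19 in the mutant libraries), ACKR3 ENSDARG00000058179 (0.333 to 0.487 and 0.388 to 0.527), il1b (0.286 to 0.856 and 0.384 to 0.761) and il34 (0.432 to 1.77 and 0.413 to 1.11). CXCR4 ENSDARG00000041959 and il6r, which rose 2.49-fold and 3.57-fold, were lower on that scale without overlap. The list itself rose 5.66-fold, so any gene that rose less, or did not change, has a lower mean on this scale. No share over all tested genes is given for it, so overlap or its absence is a description. CXCR4 was at 11.9, 8.13 and 12.9 in the controls and at 4.51, 3.83 and 6.20 in the mutant libraries. il6r was at 4.49, 6.19 and 4.87 and at 3.52, 2.80 and 3.63. CXCL12 was higher on that scale in every mutant library, at 0.0621 to 0.316 and 0.488 to 0.783. The remaining tested IDs, cxcl12b (0.0207 to 2.40 and 0.426 to 1.09) and ACKR3 ENSDARG00000062478 (0.133 to 0.321 and 0.0331 to 0.631), overlapped. The part of macrophage number in the rises was not tested.

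**Figure D4:**
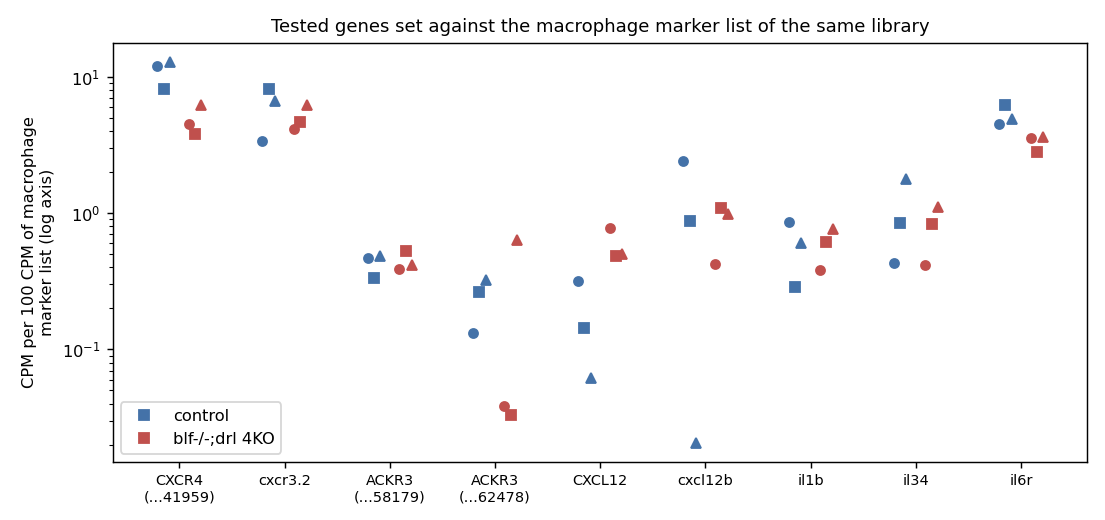
CPM of each tested ID per 100 CPM of the macrophage marker list in the same library (log axis); circles, squares and triangles are replicates 1, 2 and 3, and no error is drawn. The list itself is 5.66-fold higher in the mutant libraries. On this scale most groups overlap, CXCR4 and il6r are lower and CXCL12 is higher in the mutant libraries. The list was chosen after the values were seen and no share over all tested genes is given, so these are descriptions.

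The wider families were read from the same fit. Over all tested genes 13.0% were called higher and the median was 0.11. A gene low in 1 group could enter the test only through the group where it was high, and then had to differ, so the counts and medians of tested genes are descriptions. Control means were under the filter of 0.708 CPM for 1 tested receptor, 3 ligands, 2 interleukin IDs, 2 genes of the TNF, interferon and CSF list, 7 of the NF-kB list and 3 signaling genes. Mutant means were under it for 1 ID each of the ligand, interleukin, TNF and signaling lists and for 0 of the other lists. The filter acts on single libraries, so these tallies of means miss genes with only some controls under it, such as CXCL14 and il11b.

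Of 28 chemokine receptor IDs 12 were tested, of which 6 (50%) rose and 0 fell (median log2 fold change 2.204), and 3 of these 6 are outside the panel. Without the panel, 3 of 8 tested receptor IDs (37.5%) rose. CCR9 (ENSDARG00000055186), which in mammals encodes the receptor of CCL25, rose 8.49-fold, from 8.24 ± 5.85 to 69.9 ± 21.6 CPM (adjusted p = 0.00220, edgeR). The receptor genes ccr12b.1 and ccr12b.2 rose 17.5-fold and 10.4-fold. ccr12b.2 was at adjusted p = 0.0579 without control replicate 2.

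Of 52 chemokine ligand IDs 15 were tested, of which 6 (40.0%) rose and 1 fell (median log2 fold change 2.45). Without the panel genes among them, 5 of 13 tested ligand IDs (38.5%) rose and 1 fell. ccl34a.4 rose 6.87-fold, from 37.2 ± 13.8 to 256 ± 7.47 CPM (adjusted p = 5.32e-05, edgeR, log2 fold change 2.78, SE 0.28). CXCL14, a chemokine gene of epithelia in mammals, was at 0.148, 0.247 and 6.003 CPM in the controls and at 97.6, 120.4 and 159.9 CPM in the mutant libraries (log2 fold change 5.91, SE 1.25). It rose at adjusted p = 0.0151 (edgeR), but the call was lost at 0.102 with no expression filter. Nearly all of its control reads came from control replicate 3. The other controls were under the filter of 0.708 CPM, so CXCL14 could enter the test only with mutant libraries. The epidermal list was also higher in the mutant libraries, as was every other marker list except that of red cells. The epidermal sums were 188, 154 and 195 CPM in the controls and 2296, 1662 and 1579 CPM in the mutant libraries. The part of skin cells was not tested. ccl34b.4, under the filter in the controls, rose from 0.11 ± 0.0967 to 4.99 ± 0.662 CPM (adjusted p = 0.0110, edgeR, and 0.0536 without control replicate 1).

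The ligand that fell was ccl19a.1, a relative of the lymphoid chemokine CCL19. It was at 1.04, 4.21 and 4.73 CPM in the controls and at 0.251, 0.113 and 0.0660 CPM in the mutant libraries. The groups did not overlap, with 14 to 52 reads per control and 1 to 5 reads per mutant library. It was under the filter in the mutant libraries, and 23.2-fold lower (adjusted p = 0.0135, edgeR, log2 fold change -4.43, SE 1.09). The call was lost at adjusted p = 0.0685 and 0.0722 without mutant replicates 2 and 3 and at 0.0511 with no expression filter. Without control replicate 1, 3 ligand genes rose in place of 6.

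Of 59 IDs with interleukin symbols 23 were tested, of which 8 (34.8%) rose and 0 fell (median 2.09), 5 of them outside the panel. Without the panel, 5 of 20 tested interleukin IDs (25%) rose. il10ra, a subunit of the receptor of the anti-inflammatory cytokine Il10, rose 8.94-fold, from 7.86 ± 2.56 to 70.2 ± 28.5 CPM (adjusted p = 0.000771, edgeR). IL16, for a chemoattractant cytokine, rose 4.34-fold (adjusted p = 0.000565, edgeR). il4, the type 2 cytokine, was under the filter in the controls and went from 0.156 ± 0.121 to 6.998 ± 1.42 CPM (adjusted p = 0.00728, edgeR). il11b, of the Il6 family, was at 0.0740, 5.44 and 7.46 CPM in the controls and at 68.3, 32.4 and 61.9 CPM in the mutant libraries (adjusted p = 0.0186, edgeR). Its call was lost without control replicate 2 (0.0817), without mutant replicates 1 (0.0567) and 3 (0.0543), and with no filter (0.0629). Control replicate 1 was under the filter for il11b, so this gene could enter the test only with mutant libraries.

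Among 23 tested genes of tumor necrosis factor (TNF), interferon and colony-stimulating factor ligands and receptors, 5 (21.7%) rose and 0 fell (median 1.55). DESeq2 called 9 of them higher, and 2626 in place of 1887 over all genes. tnfrsf1b, a TNF receptor under the filter in the controls, rose from 0.505 ± 0.205 to 15.5 ± 9.79 CPM, and tnfsf12, a TNF family ligand, from 1.37 ± 1.19 to 22.6 ± 6.55 CPM (adjusted p = 0.00493 and 0.00743, edgeR). ifngr2, an interferon gamma receptor subunit, rose 4.53-fold (adjusted p = 0.0154, edgeR), a call lost without control replicates 2 and 3 and mutant replicate 1 (adjusted p = 0.0580, 0.0556 and 0.0577).

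Of 45 tested genes of NF-kB, Toll-like receptor and inflammasome signaling, 11 (24.4%) rose and 0 fell (median 1.35). REL, an NF-kB subunit, rose 3.77-fold, from 42.7 ± 6.25 to 161 ± 10.3 CPM (adjusted p = 0.000203, edgeR). IRF8, a transcription factor of macrophage fate, rose 16.4-fold (adjusted p = 4.08e-05, edgeR).

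Of 44 tested genes of signaling downstream of chemokine receptors, 18 (40.9%) rose and 2 fell (median 1.16). Without control replicate 1 the count of rises was 11, and each of the 6 cases with 1 library left out had 1 fall. rac2, a gene of leukocyte migration, rose 6.08-fold, from 90.0 ± 30.5 to 548 ± 18.4 CPM (adjusted p = 2.45e-05, edgeR). GNAI2 (ENSDARG00000018174), for an inhibitory G protein alpha subunit, rose 5.47-fold, gnai1 4.03-fold and PIK3R5, a regulatory subunit of the G protein-activated PI3 kinase, 7.15-fold. The genes that fell were jak2a (log2 fold change -2.11, adjusted p = 0.000754, edgeR) and the gene listed as JAK2 (log2 fold change -1.04, adjusted p = 0.0481, edgeR), for a kinase that also carries red cell growth signals. The JAK2 value was just under the threshold, and at 0.01 only jak2a was called lower. With library totals, no filter or the replicate block, 1 fall was left. The part of the marker lists that were higher in the same libraries, and of the red cell list, which was lower, was not tested.

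**Figure D5:**
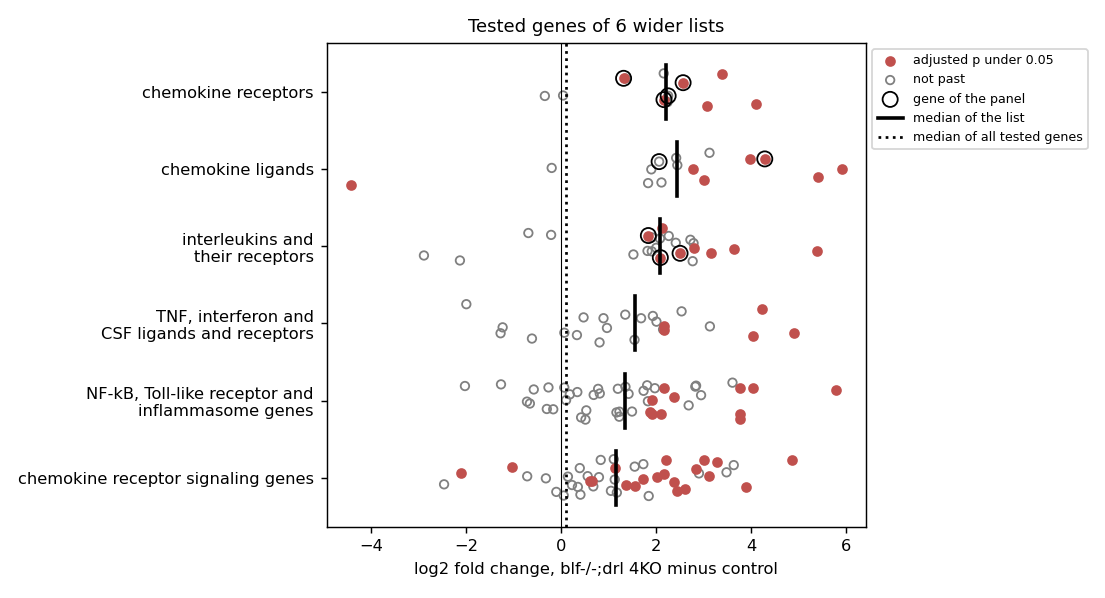
Fitted log2 fold change (mutant minus control) of every tested gene in 6 lists; filled points are past the threshold, ringed points are genes of the panel, bars are list medians and the dotted line is the median of all tested genes. The list medians lie between 1.16 and 2.45, and 3 called genes lie below 0.

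The pattern most like that of CXCR4 ENSDARG00000041959 over the 6 libraries, by distance between centred log2 CPM, was that of MEF2C (ENSDARG00000029764, distance 0.219). An ID without a symbol (ENSDARG00000092408, 0.247) and the kinase gene stk17b (0.270) followed. MEF2C was at 17.1 ± 1.65 and 45.3 ± 10.04 CPM, and stk17b at 14.0 ± 1.34 and 34.2 ± 3.03 CPM.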

How the data were processed

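The authors deposited raw counts per Ensembl gene. The submitters' processing notes name HISAT2 2.2.1, featureCounts 1.6.0, build GRCz11, SAMtools 1.10, bcl2fastq and FastQC 0.11.9. Not given in the sources used here are the annotation release, strand setting and treatment of shared reads. Reads of paralogs (CXCR4, ACKR3, ccl34 and ccr12b genes), overlapping genes or antisense partners may be divided between them.

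Symbols came from a name table (89.8% of IDs). The members and lists were chosen with earlier results of these data known. The quasi-likelihood test of edgeR 4.0.16 (R 4.3.3, robust, two-sided) was applied to the counts after filterByExpr (minimum count 10, here 0.708 CPM) and TMM scaling, as blf-/-;drl 4KO minus control, with no covariate. The pipeline was run on counts simulated from its own fitted dispersions. Far fewer genes were changed there than were called here, so that run checks the code and not these calls. No tested member had a group mean under the filter, which needs 3 libraries past it. In control replicate 3, however, CXCL12 (0.546 CPM) and cxcl12b (0.182 CPM) were under it. These 2 genes could therefore enter the test only with mutant libraries. CPM are TMM-scaled, and fold changes are ratios of mean CPM. The labels do not say that replicates came from separate clutches, so p-values may measure technical spread. Replicate libraries were not alike within counting error (chi-square over its degrees of freedom 31.8 to 68.0). Intervals of read shares and ratios cover counting error only.

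Genes named outside the panel are up to 4 of smallest p per list; il6st, il6, STAT3, SOCS3, csf1ra, csf1rb, cxcr1, CXCR1, gsdmea, GSDME, nlrp3, caspb, jak2a and JAK2, and the single marker genes, were added after their values were seen. Likeness used log2(CPM + 0.5). Alternatives included DESeq2 1.42.0 and limma-voom (limma 3.58.1). Neural markers, the last list, were at 9.64 to 17.3 and 48.1 to 66.4 CPM (2 of 7 tested IDs higher, 1 lower).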

Additional observations from a re-analysis of the deposited data

How the results depend on the processing

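Of the 7 panel IDs called higher, 6 stayed past the 0.05 threshold and higher in each of 14 alternatives with scaling, tool, filter, block or 1 library changed, and il34 in 10 of 14. The log2 fold change of ACKR3 ENSDARG00000062478 reversed to -0.0912 without mutant replicate 3, and ranged from -0.0912 to 2.77 when 1 library was left out. Had only IDs listed under the exact zebrafish symbol been used, an alternative added after seeing the data, 4 members would be called higher. With no filter 1 member and 1 chemokine receptor ID were called lower, the same CXCR4 ID ENSDARG00000057633 (adjusted p = 0.0425). At a threshold of 0.01, calls fell to 969 higher and 769 lower over all genes, 2 ligands higher and 0 lower, 5 interleukin genes and 2 TNF, interferon and CSF genes higher, and 10 signaling genes higher and 1 lower. Library totals gave 959 genes lower. DESeq2 gave 9 TNF, interferon and CSF genes higher. The ligand called lower was lost (0) with no filter and with the 10 CPM filter in 3 libraries. Signaling genes called lower were 1 with library totals and with no filter. Leaving out 1 library gave 1342 to 1551 genes higher and 868 to 1220 lower (868 without control replicate 2), 6 to 7 members higher, 3 to 6 ligands higher and 0 to 1 lower, 11 to 16 signaling genes higher and 1 lower, and 0 to 1 interleukin genes lower (1 without control replicate 1 and without mutant replicate 3); CXCL12 shares differed by -1.31 to 30.4 points. The cause was not tested. Same-numbered libraries did not deviate together (r = 0.00561, -0.0404 and -0.00445), so these values show no pairing by number, though they cannot exclude one. With replicate number as a block, 1651 genes were higher and 1277 lower, 7 members higher, and 1 signaling gene lower. Matching through RefSeq Ensembl IDs was not run, since that table pairs none. The sparse CXCR4 ID and cxcl8a rest on control replicate 2, which held 92.5% and 93.2% of their control reads.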

Other observations

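Several chemokine and interleukin genes that did not pass the expression filter had most of their reads in 1 library. Of 139 chemokine, chemokine receptor and interleukin IDs, 89 were not tested. Among these, 10 had at least 20 reads with at least 80% of them in a single library, a cutoff set after the values were seen. No such share over all untested genes is given here, so the count does not show a trait of these families. ccl20b had 320 of 323 reads, ccl34b.8 had 73 of 78, il17ra1a 230 of 268, IL1RAPL2 92 of 100 and il12b2 39 of 41 in mutant replicate 1. il12a had 67 of 75 and il22 43 of 49 in mutant replicate 2. In the controls, ccr11.1 had all of its 25 reads in replicate 1. The sparse CXCR4 ID and cxcl8a had 37 of 41 and 41 of 47 in replicate 2.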
